A study of Mus musculus with 8 samples.

Results

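The cytosolic heat shock proteins described here are 10 named genes out of 33641 gene symbols measured in mouse haematopoietic stem cells. They were chosen by name as a set of chaperones and cofactors of the heat shock response: Hspa1a, Hspa1b, Hspa8, Hsp90aa1, Hsp90ab1, Hsph1, Dnajb1, Dnaja1, Hspd1 and Hsf1. All 10 were found in every library, and all passed the filter on low values, so none was lost before testing. The set's name holds for 8 of them, because Hspd1 encodes a chaperonin of the mitochondrial matrix and Hsf1 encodes a transcription factor.

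Messenger RNA was sequenced from stem cells sorted out of bone marrow of C57BL/6 mice, and each of 4 genotypes had 2 libraries. All groups, wild type included, carried the Mx1-Cre transgene and received 6 intraperitoneal injections of polyI:C at 10 mg/kg, given every other day, and cells were taken 1 week after induction. The null groups were Scribble-/- (here Scribble null), Taz-/-;Yap1-/- (Yap1 Taz null) and Scribble-/-;Taz-/-;Yap1-/- (triple null), and the labels used here give no age. Scribble is a scaffold of the cell polarity machinery, while the co-activators Yap1 and TAZ drive transcription unless Hippo kinases hold them back. The Mx1 promoter answers interferon, which polyI:C induces, so the Cre acts in many cell types besides blood stem cells and every group had been through an interferon response. The design text speaks of experimental replicates, and no label says whether replicates were separate animals. The p-values therefore rest on library-to-library spread alone, which may be technical.

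Heat shock proteins bind unfolded or partly folded proteins and help them fold, assemble or be degraded. HSP70 proteins work in cycles of ATP binding and release, with J-domain proteins of the DNAJ family delivering clients and HSP110 proteins such as Hsph1 exchanging the nucleotide, and they pass part of their clients on to HSP90. Hsf1 is the main transcription factor that turns on the inducible members after heat, proteotoxic stress or cell handling, through repeats of the letters GAA and TTC called heat shock elements. Cognate members such as Hspa8 and Hsp90ab1 are made in unstressed cells, and blood stem cells are known to be sensitive to disturbed protein homeostasis.

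The values are TPM, a transcript abundance that is corrected for length and fixes the total of each library, so levels can be set side by side between genes but the depth behind a value is unknown. In bulk RNA, fewer cells of a type and less RNA per cell cannot be told apart. The targeted genes do not check the labels. Scrib was 8.19 and 9.29 TPM in wild type, 6.25 and 7.63 in the libraries labelled Scribble null and 14.5 and 7.54 in those labelled triple null, with 1 library of the latter above wild type. Yap1 was 2.00 and 2.15 TPM in wild type, 5.83 and 2.45 in Scribble null, 2.13 and 6.63 under the Yap1 Taz null label and 2.25 and 2.37 in the triple null, and its highest value therefore lay in a library labelled null for it. Wwtr1, the gene of TAZ, was 0.730 and 1.19 TPM in wild type, 5.32 and 3.91 in Scribble null and 1.92 and 0.775 in the triple null, while both Yap1 Taz null libraries lay within the wild type range. Since a level summed over a gene does not reveal a missing exon, the genotypes below are those of the labels. All 14 stem cell markers listed were detected, with a summed level of 2282 to 2819 TPM per library. Within that sum single markers moved in both directions, with none called by limma against wild type. Ly6a was 359 and 417 TPM in wild type and 148 to 255 TPM in the null libraries. Kit was 268 and 281 TPM in wild type and 384 to 532 TPM in the null libraries. Some defining markers of other blood cells were under 1 TPM in every library, among them Pax5 and Ebf1 of B cells, Cd3e of T cells, Camp, Ngp and S100a8 of granulocytes, and Csf1r and Adgre1 of macrophages. Other members of the same lists were detected, such as Cd79b of B cells at 9.80 to 19.6 TPM, Cd3d and Lck of T cells at 5.05 to 11.7 TPM and up to 17.4 TPM, and Cd68 and Lyz2 of myeloid cells at 17.4 to 46.1 and 176 to 292 TPM. Nkg7, a granule protein of killer cells, was 152 and 137 TPM in wild type against 68.3 and 56.2 TPM in Yap1 Taz null. It was called lower there by limma (−1.21, adjusted p = 0.0440). The other 4 of the 5 T and NK cell markers tested had a positive difference in that group, and Klrd1 and Gzma of killer cells were at 0 in every library. The part of such cells in the results was not tested. Of the Y chromosome, Ddx3y, Eif2s3y and Kdm5d were 18.1 TPM or more in the libraries of the other groups and 2.05 to 7.31 TPM in those labelled Yap1 Taz null, so genotype and a different mix of sexes cannot be told apart in any comparison that uses that group.

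Promoter sequence was available for 6 of the 10 members, from RefSeq on build GRCm38.p6, and is shown so that the near-identical pair Hspa1a and Hspa1b can be compared and examples of the matched elements can be read. In the 250 bases before the start site, a pair of head-to-head or tail-to-tail units (GAANNTTC or TTCNNGAA, each its own reverse complement, so that both strands are covered) was found in 5 of the 6 members, or 83.3%, and in 14.5% of the 27025 genes with a window. A longer element of 3 units (GAANNTTCNNGAA or TTCNNGAANNTTC), which contains the shorter ones and covers both strands as a pair, was found in 1 of the 6 members, Hspd1, and in 0.514% of all genes. The windows of Dnajb1, and of Dnajb2 described further on, held neither form. A gene counted if any of its windows matched. The 6 members had 1 to 3 windows each, next to 32851 windows for the 27025 genes. Hspa1a and Hspa1b hold near-identical sequence, so their matches are not independent. Such matches describe letters and do not show binding. The stretches below run 5′ to 3′ on the gene's own strand, with the matched units in capitals.
Hspa1a, chr17:34972157-34972286, minus strand: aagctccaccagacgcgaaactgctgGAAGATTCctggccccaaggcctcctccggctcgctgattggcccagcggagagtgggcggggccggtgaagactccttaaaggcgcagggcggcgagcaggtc
Hspa1b, chr17:34959239-34959368, minus strand: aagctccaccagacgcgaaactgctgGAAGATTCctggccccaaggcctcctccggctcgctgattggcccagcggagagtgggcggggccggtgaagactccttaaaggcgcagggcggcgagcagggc
Hsph1, chr5:149636351-149636380, minus strand: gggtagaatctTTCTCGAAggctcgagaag
Hspd1, chr1:55088052-55088081, minus strand: gggccTTCCGGAAGGTTCTAGAAcggaccg
Dnajb6, chr5:29735844-29735873, plus strand: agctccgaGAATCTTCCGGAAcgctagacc
The Hspa1a and Hspa1b stretches, which end at the base before the start site, differed at 1 of 130 positions, and their whole windows differed at 3 of 250 positions. The other 3 are 30-base sites. Dnajb6, a J-domain protein outside the 10 members, is shown because it was called in Scribble null and for the departure from additivity, as Hsph1 was. Hspd1, which was not called, is shown for its longer element.

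The members spanned a wide range of levels. Hsp90ab1 and Hspa8 were the most abundant, at 1879 to 2771 TPM and 1683 to 2477 TPM, and their ranks among all genes ran from 38 to 78 and from 52 to 79. Hsp90aa1 followed at 1177 to 1704 TPM. Dnajb1, Dnaja1, Hsph1, Hspd1 and Hspa1a lay between 158 and 651 TPM, Hspa1b between 70.3 and 132 TPM, and Hsf1 between 61.2 and 79.6 TPM. The last 2 overlap, and in triple null 1 Hspa1b, at 70.3 TPM, was below Hsf1, at 72.3 TPM. Together the 10 genes made up 0.707% to 0.893% of all TPM in a library. Relative to its own lowest library, the highest was 2.31 times as high for Hsph1, the widest span of the set, and 1.30 times for Hsf1, the narrowest.

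**Figure D1:**
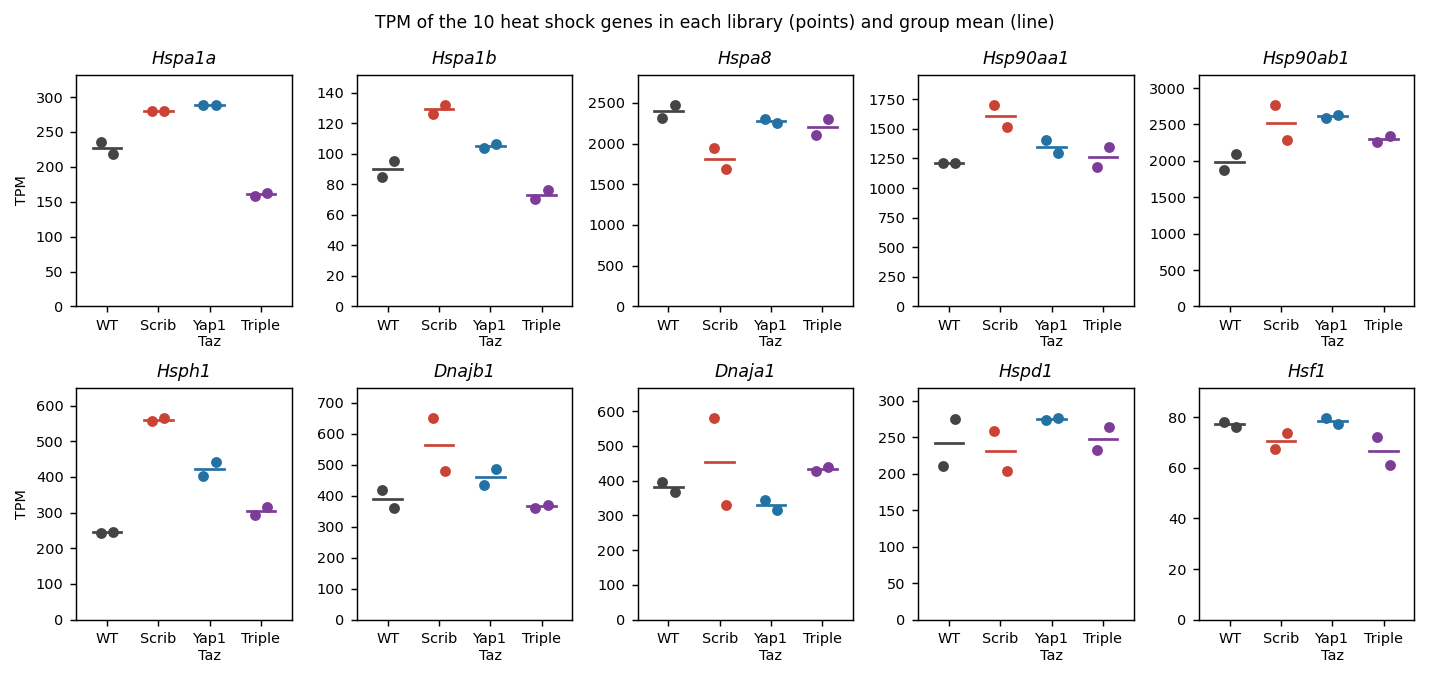
Level in TPM (vertical axis, from 0) of each of the 10 heat shock genes in the 8 libraries (points), by genotype (horizontal axis), with the mean of each pair as a line. Hsph1 runs from 244 and 247 TPM in wild type to 557 and 565 TPM in Scribble null, and Hspa1a is lowest in the triple null at 158 and 163 TPM.

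The first comparison set loss of Scribble against wild type. Hsph1, the HSP110 nucleotide exchange factor of HSP70 (mm10 chr5:149614287-149636376), was 244 and 247 TPM in the wild type libraries and 557 and 565 TPM in the Scribble null libraries. The groups did not overlap, and the replicates lay close together in both. Hsph1 rose 2.29-fold, a log2 difference of 1.19 (SE 0.11, 95% interval 0.94 to 1.44) on the log2(TPM + 1) scale used throughout, with an adjusted p of 0.00172. It was the only one of the 10 members called, that is, with an adjusted p under 0.05 in limma after adjustment over all 16064 genes tested, of which 1.30% were called and 0.591% were called higher. The call held under every alternative run, with adjusted p-values of 0.0011 to 0.0499.

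The stress-inducible HSP70 genes were higher in Scribble null by amounts that did not pass the test. Hspa1a (chr17:34969190-34972156) was 235 and 218 TPM in wild type and 280 in both Scribble null libraries, a log2 difference of 0.30 (95% interval 0.06 to 0.55, adjusted p = 0.200). Hspa1b (chr17:34956436-34959238) was 85.0 and 94.9 TPM against 126 and 132 TPM, a log2 difference of 0.52 (adjusted p = 0.105). Their transcripts are 99.2% identical over the aligned part, so reads could have been assigned to either gene. As a sum the pair stood at 320 and 313 TPM in wild type against 405 and 412 TPM in Scribble null, again with no overlap.

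HSP90, which matures kinases, steroid receptors and other signalling proteins, showed a similar picture. Hsp90aa1, the inducible form (chr12:110690605-110702728), was 1209 and 1215 TPM in wild type against 1704 and 1513 TPM in Scribble null, a log2 difference of 0.41 (95% interval 0.14 to 0.67, adjusted p = 0.131). Hsp90ab1, the constitutive form (chr17:45567775-45573271), was 1879 and 2099 TPM against 2771 and 2283 TPM, a log2 difference of 0.34 (adjusted p = 0.198) that ran from 0.20 without Scribble null 1 to 0.48 without Scribble null 2. Both forms were therefore above wild type in each Scribble null library, and neither passed the test on TPM. Under quantile normalization Hsp90aa1 was called as well, at 0.61 with an adjusted p of 0.0398 (0.0398 to 0.443 over all alternatives).

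Of the J-domain proteins, Dnajb1 (chr8:83608193-83612653), which delivers clients to HSP70 and is strongly heat inducible, was 420 and 362 TPM in wild type against 651 and 480 TPM in Scribble null. The difference of 0.52 on the log2 scale was not called (adjusted p = 0.159) and ran from 0.30 without Scribble null 1 to 0.74 without Scribble null 2. Dnaja1 (chr4:40722150-40737149), an abundant farnesylated J-domain protein, was 395 and 366 TPM against 580 and 329 TPM, so its Scribble null libraries lay on either side of wild type. Scribble null 1 was above Scribble null 2 for Hsp90aa1, Hsp90ab1, Dnajb1, Dnaja1, Hspa8 and Hspd1, but not for Hsph1, Hspa1b or Hsf1.

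Hspa8, the constitutive HSP70 (chr9:40800984-40810087), was listed lower in Scribble null, at 1940 and 1683 TPM against 2315 and 2477 TPM in wild type, a log2 difference of −0.41 (adjusted p = 0.118). This difference changed direction once a pseudogene was counted with it. Gm15459 (chr5:5781615-5783555), a processed pseudogene whose sequence is 99.6% identical to the Hspa8 transcript, was 17.9 and 15.5 TPM in wild type against 728 and 717 TPM in Scribble null. It was 13.6 to 17.5 TPM in all other libraries. The rise of Gm15459 was 5.36 on the log2 scale (95% interval 4.98 to 5.73, adjusted p = 1.24e-05), and this gene was singled out after its values were seen. Summed with its near-identical copies, Hspa8 was 2337 and 2496 TPM in wild type against 2671 and 2404 TPM in Scribble null, which overlap, and the log2 difference became 0.07 (adjusted p = 0.757, with 0.0643 to 0.757 over all alternatives). How reads that match both loci were assigned is not given in the sources used here, so the share of Gm15459 that came from Hspa8 transcripts cannot be told apart from transcription of the pseudogene.

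The last members did not separate Scribble null from wild type in a shared direction. Hspd1, the mitochondrial chaperonin HSP60 (chr1:55077835-55088243), was 210 and 275 TPM in wild type against 258 and 204 TPM in Scribble null, which overlap. Hsf1 (chr15:76477422-76501913) was 78.2 and 76.1 TPM against 67.3 and 73.6 TPM, lower in both Scribble null libraries. Counted over the set with copies left out, 6 members lay above wild type in every Scribble null library and 2, Hspa8 and Hsf1, lay below it. Among all genes tested 33.2% were higher and 15.7% lower by the same rule. The members' median log2 difference was 0.32, and that of all genes was 0.14.

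**Figure D2:**
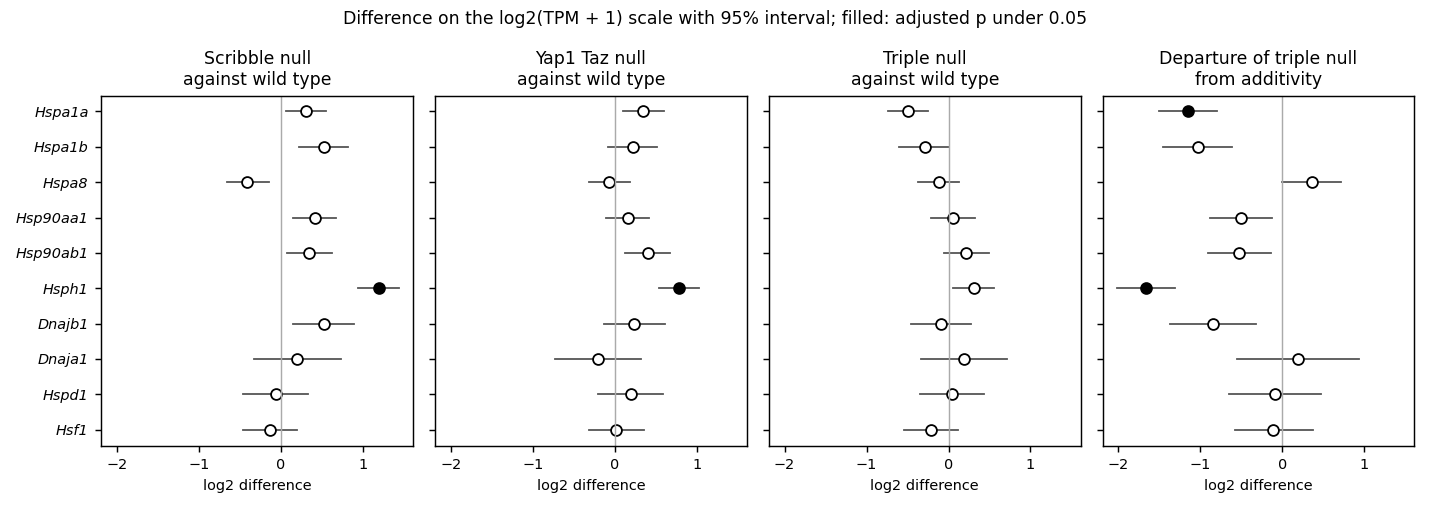
Log2 difference on the log2(TPM + 1) scale (horizontal axis) for each heat shock gene in 4 comparisons, with its 95% interval as a bar; filled points have an adjusted p under 0.05. Hsph1 is filled at 1.19 and 0.78 against wild type in the first and second panels, no gene is filled for triple null against wild type, and Hsph1 and Hspa1a are filled at −1.66 and −1.15 for the departure from additivity.

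The second comparison set loss of Yap1 and TAZ against the same 2 wild type libraries, so it shares its controls with the first. Hsph1 was 404 and 443 TPM in the Yap1 Taz null libraries, both above the wild type values of 244 and 247 TPM and both below the Scribble null values. It rose 1.73-fold, a log2 difference of 0.78 (95% interval 0.54 to 1.03, adjusted p = 0.0163). It was again the only member called, while 0.990% of all genes tested were called and 0.473% were called higher. The call was lost without wild type 1 (adjusted p = 0.143), without wild type 2 (adjusted p = 0.0871), without Yap1 Taz null 1 (adjusted p = 0.0747) and without Yap1 Taz null 2 (adjusted p = 0.146), and over all alternatives the adjusted p ran from 0.0124 to 0.149.

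The other members missed the threshold in Yap1 Taz null. Hspa1a was 288 and 289 TPM (log2 difference 0.35, adjusted p = 0.212), and Hspa1b was 104 and 106 TPM (0.22, adjusted p = 0.482). The summed pair, at 392 and 395 TPM, lay above the 320 and 313 TPM of wild type. Hsp90ab1 was 2596 and 2634 TPM, which is 0.40 above wild type on the log2 scale (adjusted p = 0.204), and Hsp90aa1 was 1409 and 1293 TPM. Both HSP90 genes were thus above wild type in each library here too. Dnajb1 was 435 and 487 TPM (0.24, adjusted p = 0.535), while Dnaja1 was 343 and 316 TPM, below both wild type values. Hspa8 at 2298 and 2255 TPM lay just below both wild type libraries, and Hspd1 at 274 and 276 TPM and Hsf1 at 79.6 and 77.4 TPM overlapped them. In all, 6 members were higher in both Yap1 Taz null libraries than in both wild type libraries and 2 were lower, against 32.0% and 14.5% of all genes. The members' median was 0.21, and that of all genes was 0.14.

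In the triple null, compared with the same wild type libraries, none of the 10 members was called by limma, while 0.579% of all genes were. At an unadjusted p under 0.05, 1 of the 10 members was higher and 1 was lower, next to 7.50% and 3.45% of all genes. With copies left out, these counts were 6 and 1 in Scribble null (12.0% and 6.16% of all genes) and 3 and 0 in Yap1 Taz null (10.1% and 4.20%). They were 1 and 5 for triple null against Scribble null (4.56% and 4.59%) and 0 and 3 against Yap1 Taz null (3.83% and 4.58%). For the departure from additivity, described below, they were 1 and 6 (5.02% and 9.50%). Hspa1a was 158 and 163 TPM against 235 and 218 TPM in wild type, so both triple null libraries were below wild type, with a log2 difference of −0.50 (95% interval −0.74 to −0.25, adjusted p = 0.131). Hsph1 was 292 and 317 TPM, above the 244 and 247 TPM of wild type by 0.31 on the log2 scale (adjusted p = 0.358). The inducible HSP70 gene and its HSP110 partner thus lay on opposite sides of wild type.

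The remaining members of the triple null also missed the threshold. Hspa1b was 70.3 and 75.9 TPM, lower than 85.0 and 94.9 TPM (log2 difference −0.29, adjusted p = 0.469), and the summed pair was 228 and 239 TPM. Hsp90aa1 at 1177 and 1351 TPM overlapped wild type, and Hsp90ab1 was 2257 and 2347 TPM (0.21, adjusted p = 0.560). Dnajb1 was 361 and 371 TPM (−0.09, adjusted p = 0.874). The intervals of these differences include both small rises and small falls, so likeness to wild type is not shown. Dnaja1, counted without its near-identical copies, was 429 and 439 TPM, above both wild type libraries. Gm15542, a processed pseudogene 99.4% identical to the Dnaja1 transcript, was 37.3 to 94.9 TPM across the libraries. Summed with its near-identical copies, Dnaja1 was 468 and 500 TPM against 491 and 430 TPM in wild type, which overlap. Hspa8 was 2106 and 2308 TPM, Hspd1 was 232 and 264 TPM and Hsf1 was 72.3 and 61.2 TPM. In all, with copies left out, 3 members (Dnaja1 among them) were higher and 4 lower in both triple null libraries, against 30.9% and 14.2% of all genes. The members' median was −0.03, and that of all genes was 0.12.

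Set against Scribble null, the triple null asks what the added loss of Yap1 and TAZ does. Of the 10 members, 2 were called lower and none higher, against 0.212% of all genes called in either direction and 0.0996% called lower. Hsph1 fell from 557 and 565 TPM to 292 and 317 TPM, a log2 difference of −0.88 (95% interval −1.13 to −0.63, adjusted p = 0.0212). Hspa1a fell from 280 in both libraries to 158 and 163 TPM, a log2 difference of −0.80 (95% interval −1.05 to −0.55, adjusted p = 0.0347). Both calls were lost whichever of the 8 libraries was left out, with adjusted p-values of 0.0521 to 0.247 for Hsph1 and 0.0712 to 0.296 for Hspa1a. Over all alternatives they ran from 0.0138 to 0.257 and from 0.0225 to 0.318.

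Hspa1b differed by −0.81 without being called (adjusted p = 0.0810, with 0.0225 to 0.478 over the alternatives). Summed with Hspa1a, it was called, at −0.81 with an adjusted p of 0.0225, as the pair went from 405 and 412 TPM to 228 and 239 TPM. Dnajb1 differed by −0.61 (adjusted p = 0.301; −0.39 without Scribble null 1), Hsp90aa1 by −0.35 (adjusted p = 0.406) and Hsp90ab1 by −0.13 (adjusted p = 0.793). These 3 were lower in mean in the triple null, by less than the test could call. Hspa8 differed by 0.29 (adjusted p = 0.470) and, with its copies, by −0.19 (adjusted p = 0.641), since Gm15459 fell from 728 and 717 TPM to 17.5 and 15.7 TPM (−5.37, adjusted p = 2.77e-06). With copies left out, 5 members were lower and 1, Hspa8, was higher in both triple null libraries than in both Scribble null libraries. Over all genes the shares were 21.1% and 19.0%. With its copies, Hspa8 was 2126 and 2327 TPM against 2671 and 2404 TPM, lower in both triple null libraries. The members' median was −0.24, and that of all genes was −0.01.

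Set against Yap1 Taz null, the triple null asks what the added loss of Scribble does. Hspa1a fell from 288 and 289 TPM to 158 and 163 TPM, a log2 difference of −0.84 (95% interval −1.09 to −0.60, adjusted p = 0.0388), and was the only member called, against 0.181% of all genes in either direction and 0.112% called lower. The call was lost whichever of the 8 libraries was left out (adjusted p-values of 0.0520 to 0.308). As a sum with Hspa1b the pair went from 392 and 395 TPM to 228 and 239 TPM, a log2 difference of −0.75 that was called (adjusted p = 0.0440, with 0.0440 to 0.828 for Hspa1b over the alternatives). Hsph1 was lower by less, at 292 and 317 TPM against 404 and 443 TPM (−0.47, adjusted p = 0.221). Dnajb1 differed by −0.33 (adjusted p = 0.655), and Hsp90ab1 by −0.18 (adjusted p = 0.764). In all, 7 members were lower and 1, Dnaja1, was higher in both triple null libraries than in both Yap1 Taz null libraries, against 21.3% and 18.7% of all genes. The members' median was −0.21, and that of all genes was −0.02.

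The design also allows a test of whether the losses add up. The departure from additivity is the triple null's log2 difference from wild type minus the sum of the differences of Scribble null and Yap1 Taz null, so a negative value means a level below that sum. Of the 10 members, 2 departed downwards and none upwards, while 0.635% of all genes were called in either direction and 0.261% were called lower. Hsph1 was 1.19 above wild type in Scribble null and 0.78 above it in Yap1 Taz null but 0.31 above it in the triple null, a departure of −1.66 (SE 0.15, 95% interval −2.02 to −1.31, adjusted p = 0.00247). The departure of Hsph1 was called under all alternatives except the one with no trend in the variances (adjusted p = 0.0692).

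Hspa1a was above wild type in both of the other null groups and below it in the triple null, a departure of −1.15 (SE 0.15, 95% interval −1.50 to −0.80, adjusted p = 0.0177). Its call was lost without any library but Scribble null 2, with adjusted p-values of 0.0521 to 0.104. Hspa1b departed by −1.03 (adjusted p = 0.0624), and the summed pair by −1.12 (adjusted p = 0.0142, with 0.0142 to 0.235 for Hspa1b over the alternatives). Dnajb1 departed by −0.85 (adjusted p = 0.165), Hsp90ab1 by −0.53 (adjusted p = 0.220) and Hsp90aa1 by −0.50 (adjusted p = 0.220). Their intervals lay below 0 while the adjusted p-values missed the threshold. Hspa8 departed by 0.36 (adjusted p = 0.339), which became −0.11 with its copies (adjusted p = 0.760). Over the set the median departure was −0.51, and over all genes it was −0.15.

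**Figure D3:**
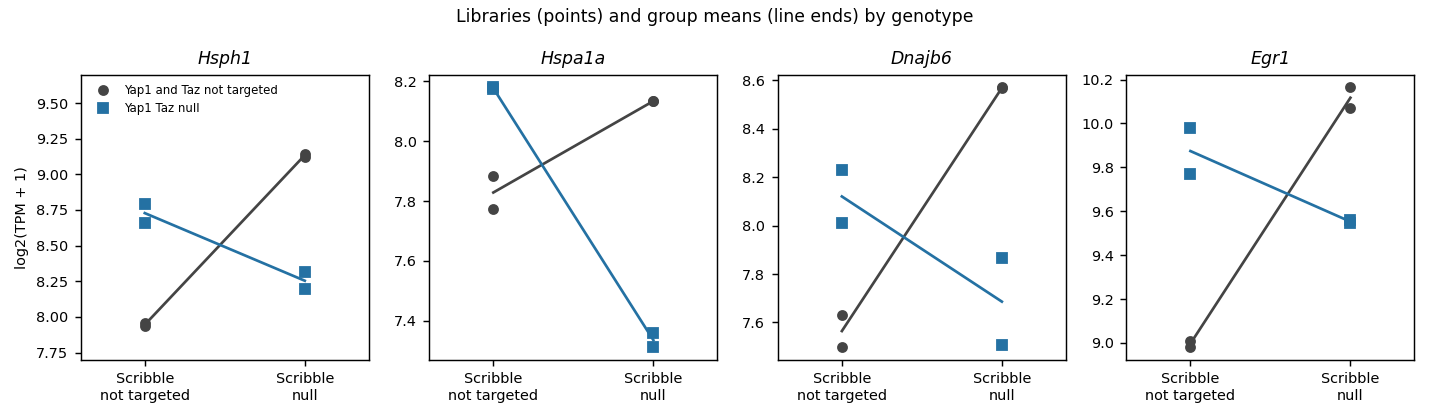
Log2(TPM + 1) of Hsph1, Hspa1a, Dnajb6 and Egr1 (vertical axes, which differ between panels and do not start at 0) without and with loss of Scribble (horizontal axis), in libraries with Yap1 and Taz not targeted (circles) and in Yap1 Taz null libraries (squares); lines join the group means. The lines cross in each panel, and the departures from additivity are −1.66, −1.15, −1.44 and −1.44.

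Across the 8 libraries the members did not all follow each other. As a description, Pearson's r on log2(TPM + 1) was 0.88 for Hspa1a with Hspa1b, 0.86 for Hsp90aa1 with Hsph1, 0.84 for Hsp90aa1 with Dnajb1 and 0.81 for Hsph1 with Dnajb1. It was −0.76 for Hspa8 with Hsph1 and −0.65 for Dnaja1 with Hsf1. Hspa8 and Dnaja1 were taken here without their near-identical copies. With copies summed, Hspa8 was 2671 and 2404 TPM in Scribble null against 2337 and 2496 TPM in wild type, which overlap. No correlation was computed with copies summed. The libraries share groups of 2, and TPM ties all genes of a library to 1 total. The ratio of Hspa1a to Hspa1b was 2.12 to 2.77 and that of Hsp90ab1 to Hsp90aa1 was 1.51 to 2.04, so the order within each pair was the same in every library. The ratio of Hsph1 to Hspa8 moved more, from 0.105 and 0.0996 in wild type to 0.287 and 0.336 in Scribble null. In those libraries Gm15459 was high, and how reads were split between it and Hspa8 is not known. The mean of the members' standardised log2 levels was highest in Scribble null 1, at 0.88, and lowest in triple null 1, at −0.64. Of 9057 genes outside all lists with a mean of at least 10 TPM, the 5 whose profile was most like this mean were Gm29013 (r = 0.996), 1110034G24Rik (0.969), AW822252 (0.966), Dcaf4 (0.956) and Btg1 (0.954). Gm29013, a gene model, was 10.4 and 13.5 TPM in wild type, 36.0 and 17.9 in Scribble null, 26.1 and 23.4 in Yap1 Taz null and 8.77 and 10.3 in the triple null.

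The chaperone network around the members was followed through 7 lists. Among 23 cofactors of HSP70 (J-domain proteins, nucleotide exchange factors and regulators), all tested, 2 were called higher in Scribble null and none lower, and 1 departed downwards from additivity, next to 0.591% of all genes called higher in Scribble null and 0.261% departing downwards. Dnajb6, a J-domain protein that keeps aggregation-prone proteins soluble, was 180 and 197 TPM in wild type, 379 and 378 in Scribble null, 257 and 299 in Yap1 Taz null and 232 and 181 in the triple null. It rose 2.01-fold in Scribble null (log2 difference 1.00, adjusted p = 0.0251) and departed by −1.44 in the triple null (adjusted p = 0.0277), the same directions as Hsph1. The rise was lost without wild type 1 (adjusted p = 0.217), wild type 2 (0.0889), Scribble null 1 (0.121) or Scribble null 2 (0.0561). It was also lost with no filter (0.0639), the series table (0.106), no trend in the variances (0.117), only the groups compared (0.103) and a replicate block (0.0550). The departure was lost without any library but triple null 1 (adjusted p-values of 0.0556 to 0.145), and with no filter (0.0831), the series table (0.103), no trend (0.146) and the block (0.0661).

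Dnajb2, a J-domain protein that hands clients to the proteasome, was 13.5 and 15.6 TPM in wild type against 29.4 and 34.5 TPM in Scribble null, a 2.20-fold rise (log2 difference 1.08, adjusted p = 0.0419). Its levels were 29.4 and 28.9 TPM in Yap1 Taz null and 21.6 and 20.9 TPM in the triple null, all above wild type. The Scribble null call was lost whichever of the 8 libraries was left out, at adjusted p-values of 0.0784 to 0.262. It was lost too under median-ratio scaling (0.0519), quantile normalization (0.0554), no filter (0.0555), the series table (0.201), no trend (0.0767), only the groups compared (0.219) and the block (0.0732). The list's median in Scribble null was 0.16, next to 0.14 for all genes.

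None of the 18 HSP90 co-chaperones was called by limma in any of the 6 comparisons on TPM. For the counts at an unadjusted p under 0.05 in this and the next lists, the shares of all 16064 genes were 12.0% higher and 6.16% lower in Scribble null, 10.1% and 4.20% in Yap1 Taz null, and 7.50% and 3.45% in the triple null. They were 4.56% higher and 4.59% lower for triple null against Scribble null, 3.83% and 4.58% against Yap1 Taz null, and 5.02% and 9.50% for the departure. At an unadjusted p under 0.05, 4 were higher and 2 lower in Scribble null, 2 were higher in Yap1 Taz null and none passed in the triple null. For triple null against Scribble null 2 were higher, against Yap1 Taz null none passed, and for the departure 2 were higher and 1 lower. Stip1, the adaptor that joins HSP70 to HSP90, was 80.9 and 72.3 TPM in wild type against 38.4 and 48.4 TPM in Scribble null (log2 difference −0.81, adjusted p = 0.0797), and was called under median-ratio scaling (−0.97, adjusted p = 0.0434). Ahsa1, the activator of the HSP90 ATPase, was 124 and 119 TPM against 84.4 and 86.8 TPM (−0.50, adjusted p = 0.114). Stip1 and Ahsa1, named for their small p, were thus listed lower in the libraries in which Hsp90aa1 and Hsp90ab1 were listed higher. The list did not share that direction, with 9 positive and 9 negative differences in Scribble null.

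The cytosolic chaperonin TRiC and its helper prefoldin, which fold actin and tubulin, were listed lower in all null groups without a call. Of 13 genes tested (14 listed), 12 had a negative difference in Scribble null, 11 in Yap1 Taz null and 11 in the triple null, with medians of −0.31, −0.21 and −0.26. Over all genes 37.3%, 36.0% and 37.0% were negative. At an unadjusted p under 0.05, 5, 5 and 4 of them were lower (against 6.16%, 4.20% and 3.45% of all genes) and none was higher, 1 was higher for triple null against Scribble null, none passed against Yap1 Taz null, and 5 were higher for the departure (against 5.02%). Cct3, a TRiC subunit, was 350 and 298 TPM in wild type against 171 and 230 TPM in Scribble null (−0.70, adjusted p = 0.0904), and was called without Scribble null 2 (adjusted p = 0.0417). Pfdn6, a prefoldin subunit, was 105 and 82.0 TPM against 51.1 and 32.3 TPM (−1.17, adjusted p = 0.0593). It was called with a filter of 5 TPM (adjusted p = 0.0376), under median-ratio scaling (0.0450) and without Scribble null 1 (0.0400). The 3 comparisons share the wild type libraries, so their directions are not independent.

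Chaperones of the endoplasmic reticulum, which belong to the unfolded protein response and not to the heat shock response, also gave no call in any comparison. Of 14, 12 had a negative difference in Scribble null and 12 in Yap1 Taz null (medians −0.32 and −0.30), with 5 and 2 lower at an unadjusted p under 0.05 and 0 and 1 higher. In the triple null 9 were positive, next to 63.0% of all genes, and none had an unadjusted p under 0.05. The median was 0.13, close to the 0.12 of all genes. The departure from additivity was positive for 13 of 14, with 7 higher and 1 lower at an unadjusted p under 0.05, and its median was 0.68. Over all genes 39.8% of departures were positive, and 5.02% were higher and 9.50% lower at that level. Triple null was higher than Scribble null for 6 and higher than Yap1 Taz null for 3 at that level. Sdf2l1, a component of an endoplasmic reticulum chaperone complex, was 21.5 and 29.2 TPM in wild type against 11.4 and 5.10 TPM in Scribble null (−1.58, adjusted p = 0.0875). Calr, the lectin chaperone calreticulin, was 232 and 202 TPM against 141 and 156 TPM (−0.54, adjusted p = 0.105). The median of this list thus lay on the other side of 0 from that of the 10 heat shock members in Scribble null, in Yap1 Taz null and for the departure.

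**Figure D4:**
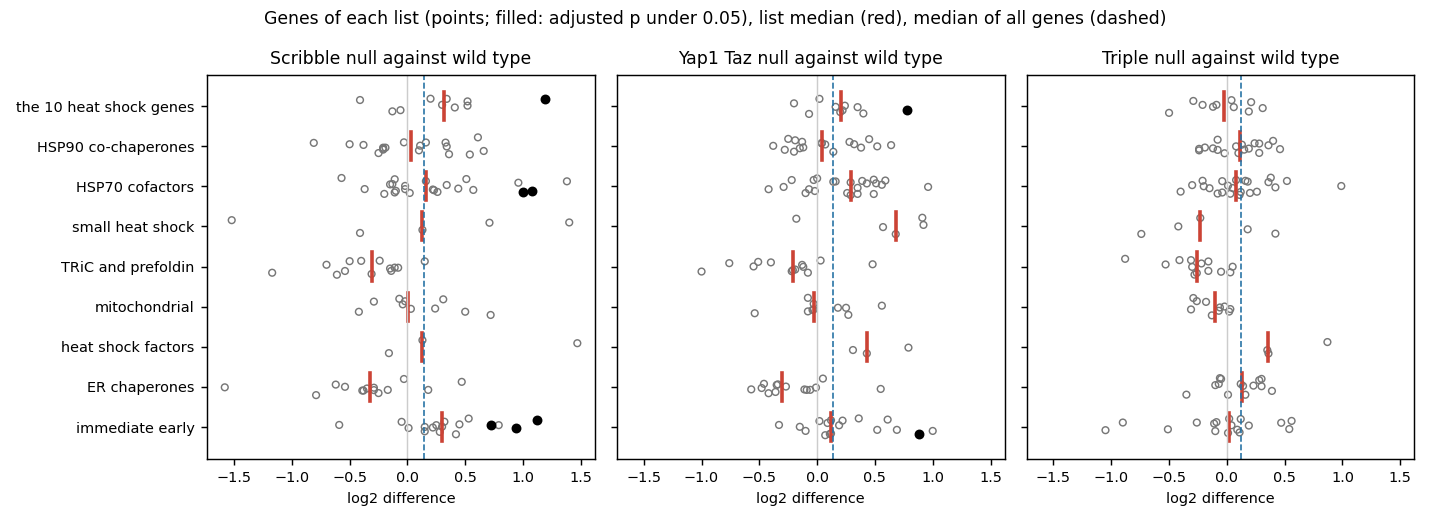
Log2 difference from wild type (horizontal axis, log2(TPM + 1) scale) of each gene (points) of the heat shock set and of 8 other lists, with the list's median in red, the median of all genes as a dashed line, and genes with an adjusted p under 0.05 filled. In Scribble null the median is 0.32 for the 10 heat shock genes, −0.31 for TRiC and prefoldin and −0.32 for the endoplasmic reticulum chaperones, with 0.14 for all genes.

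The 3 remaining chaperone lists gave no call in any comparison. Of 10 small heat shock proteins 5 were tested, and Hspb1, which holds unfolded proteins and binds actin filaments, was 77.4 and 83.1 TPM in wild type, 102 and 141 in Yap1 Taz null and 55.1 and 40.9 in the triple null. Its difference between triple null and wild type was −0.74 (adjusted p = 0.230). Hspb11, which despite its name is a part of the intraflagellar transport machinery, was 8.45 and 15.0 TPM in wild type against 19.8 and 24.7 TPM in Yap1 Taz null (0.91, adjusted p = 0.250), which became 0.53 without wild type 1. For these 5 genes, 1 was lower at an unadjusted p under 0.05 in Scribble null, 2 were higher in Yap1 Taz null, 1 was lower in the triple null against each other group, and 3 were lower for the departure.

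All 10 mitochondrial chaperones and proteases were tested. Clpx, the unfoldase of the matrix protease, was 17.8 and 18.2 TPM in wild type against 37.1 and 24.6 TPM in Scribble null (0.72, adjusted p = 0.173), which became 0.43 without Scribble null 1. Its peptidase partner Clpp was 33.3 and 37.0 TPM in wild type against 23.1 and 24.7 TPM in Yap1 Taz null (−0.54, adjusted p = 0.249). At an unadjusted p under 0.05, 2 of this list were higher in Scribble null, 1 was lower in Yap1 Taz null and none passed in the triple null. For the triple null 4 were lower against Scribble null, none passed against Yap1 Taz null, and 3 were lower for the departure. Of 5 heat shock factors and regulators 3 were tested, with 1 higher at an unadjusted p under 0.05 in Scribble null, 1 higher in Yap1 Taz null, 1 higher in the triple null against Scribble null and none in the other comparisons. Hsf4 was at the floor of detection, at 0 and 0.0503 TPM in wild type against 2.18 and 1.52 TPM in Scribble null (adjusted p = 0.175). Hsbp1, which binds and restrains Hsf1, was 318 and 284 TPM in wild type against 434 and 375 TPM in Yap1 Taz null (0.43, adjusted p = 0.332).

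Immediate early genes, which are transcribed within minutes of a stimulus and also answer the handling of cells during isolation, were followed as a list of 17. Their summed level was 4802 and 4618 TPM in wild type, 6360 and 6993 in Scribble null, 5719 and 6183 in Yap1 Taz null and 4994 and 5124 in the triple null. The order of groups in this sum is that seen for Hsph1. The list's median log2 difference was 0.30 in Scribble null, 0.12 in Yap1 Taz null and 0.02 in the triple null. Over all genes the medians were 0.14, 0.14 and 0.12. In Scribble null 3 of the 17 were called higher, in Yap1 Taz null 1 was called higher, and 4 departed downwards from additivity, with none called in the other direction. The shares of all genes were 0.591%, 0.473% and 0.261%.

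Egr1, a zinc finger factor, was at most 515 TPM in both wild type libraries, 1074 and 1146 in Scribble null, 871 and 1009 in Yap1 Taz null and 753 and 747 in the triple null. Its log2 differences were 1.12 (adjusted p = 0.00270) in Scribble null and 0.88 (adjusted p = 0.0103) in Yap1 Taz null, and it departed by −1.44 (adjusted p = 0.00546). With no trend in the variances all 3 calls were lost (adjusted p-values of 0.0636, 0.121 and 0.117), and with only the groups compared those of Scribble null (0.0644) and Yap1 Taz null (0.0814). The Yap1 Taz null call was also lost without wild type 1 (adjusted p = 0.107), wild type 2 (0.0730) or Yap1 Taz null 2 (0.0933). Fosb, a subunit of AP-1, was 327 and 315 TPM in wild type against 591 and 645 TPM in Scribble null, a rise of 0.94 (adjusted p = 0.0113) that was lost without wild type 1 (adjusted p = 0.104) or wild type 2 (0.0795), with no trend (0.109) and with only the groups compared (0.121). In the triple null Fosb was 468 TPM in both libraries, 0.54 above wild type and not called (adjusted p = 0.136).

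Btg2, an antiproliferative gene, was 119 and 142 TPM in wild type, 156 and 170 in Scribble null, 207 and 190 in Yap1 Taz null and 103 and 80.7 in the triple null, and departed by −1.44 (adjusted p = 0.0403). Zfp36, which destabilises mRNAs of inflammatory genes, was 1080 and 983, 1404 and 1407, 1266 and 1378, and 933 and 987 TPM in the same order and departed by −0.91 (adjusted p = 0.0403). Both departures were lost whichever of the 8 libraries was left out, at adjusted p-values of 0.0667 to 0.168 for Btg2 and 0.0521 to 0.192 for Zfp36. Over all alternatives these ran from 0.0245 to 0.168 and from 0.0245 to 0.220. The other called genes of the list were Klf6 in Scribble null and Nr4a1 for the departure, named after their values were seen. The part of cell handling in the levels of the heat shock members was not tested.

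Some markers listed for other cells also moved between the groups. The summed level of 9 granulocyte markers was 119 and 143 TPM in wild type against 428 and 268 TPM in Scribble null, almost wholly from Prtn3, while Ctsg, Camp, Ngp and S100a8 were under 1 TPM in every library. That of 7 megakaryocyte markers was 1183 and 1310 TPM in wild type and 426 to 650 TPM in the other groups, with most of the difference in Pf4. Of the 6 tested, only Pf4 was called against wild type, lower in each null group. The 6 gave 1 positive and 5 negative differences in Scribble null, 5 and 1 in Yap1 Taz null, and 2 and 4 in the triple null. Over all genes 62.5%, 63.9% and 63.0% were positive. The part of other cells in the levels of Hsph1 and Hspa1a was not tested.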

How the data were processed

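RNA from the 8 libraries was extracted on RNeasy columns, amplified with the Ovation system and made into Nextera XT libraries, per the labels' protocols. The authors deposited a table of TPM per library, per the file headers, with 33641 symbols each. TPM holds no depth, and a rise in 1 abundant gene lowers the rest. The authors also deposited 1 table of all libraries, a linear signal whose unit is not named in its header. It was used as an alternative only, and 27458 of its 28987 identifiers (94.725%) matched a symbol. The submitters' processing notes name TopHat and build mm10. The sources used here give neither the quantifier nor the annotation, nor how reads with several matches were handled.

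Log2(TPM + 1) was tested with limma 3.58.1 in R 4.3.3, with a mean-variance trend, in 1 model of 4 group means over all 8 libraries (4 residual and 4.002 prior degrees of freedom). The filter kept 16064 genes that reached 1 TPM in 2 or more libraries, and Benjamini-Hochberg adjustment ran over all of them within each of 6 comparisons. The script was tested on simulated data. The log2 scale with 1 added understates changes of low genes.

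The members and lists were chosen with earlier results of these data known. Named were all members, every called gene of a chaperone list or else the 2 with the smallest p against wild type, up to 4 called immediate early genes, the targeted genes and the 5 genes most like the members.

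Coordinates are from GENCODE M21 on GRCm38, which is mm10. Near-identical copies share at least 95% of bases over at least 75% of the shorter transcript (BLAST 2.17.0), a coverage lowered after Hspa1a and Hspa1b were seen to align over 78.5%. Each promoter of 250 bases is from RefSeq, build GRCm38.p6. Alternatives were other pseudocounts, filters, scalings and variance models, the series table, a replicate block, summed copies and leaving out each library.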

Additional observations from a re-analysis of the deposited data

Results flagged for a closer look

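Among the members, the chaperone lists and the 4 immediate early genes described, 6 genes were called for the departure from additivity (limma, adjusted over all genes). For these, the effect of losing Scribble differed between libraries labelled with and without loss of Yap1 and TAZ. Hsph1 was 1.19 higher on the log2 scale after loss of Scribble alone and differed by −0.47 when Yap1 and TAZ were missing too, a departure of −1.66 (adjusted p = 0.00247). For Hspa1a the corresponding values were 0.30 and −0.84, a departure of −1.15 (adjusted p = 0.0177). For the J-domain gene Dnajb6 they were 1.00 and −0.44, a departure of −1.44 (adjusted p = 0.0277). Among the immediate early genes, Egr1 departed by −1.44 (adjusted p = 0.00546), Btg2 by −1.44 (adjusted p = 0.0403) and Zfp36 by −0.91 (adjusted p = 0.0403). Nr4a1 was called too. The calls of Btg2 and Zfp36 were lost whichever of the 8 libraries was left out, and those of Hspa1a and Dnajb6 for 7 of the 8. The departure uses the Yap1 Taz null libraries, where genotype and a different mix of sexes cannot be told apart.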

How the results depend on the processing

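The numbers of members called depended on the processing in 5 of the 6 comparisons, and in the other, triple null against wild type, the count stayed at 0. For Scribble null the count of 1 became 2 under quantile normalization. For Yap1 Taz null it fell from 1 to 0 with the series table, with no trend in the variances and with only the groups compared, and ranged from 0 to 1 when libraries were left out. For triple null against Scribble null it fell from 2 to 1 under median-ratio scaling and to 0 with the series table, no trend, only the groups compared and each library left out. For triple null against Yap1 Taz null it fell from 1 to 0 under those same settings. With copies summed, Hspa1a and Hspa1b hold the same sum, so the counts of 2, 3 and 3 for triple null against Yap1 Taz null, against Scribble null and for the departure count that sum under both names and add no gene. The departure went from 2 to 1 under median-ratio scaling, to 0 with no trend, and to between 1 and 2 without 1 library. A group with 1 library left was assumed to vary like the others. With the replicate block, the count for triple null against Scribble null was 1 and that against Yap1 Taz null was 0. Replicate differences correlated between groups at only −0.05 to 0.03, so no shift shared by replicate number was seen. Such correlations cannot exclude that a number marks a shared day or preparation. The sign turned for Hspa8 with copies summed (0.07 in Scribble null, −0.19 for triple null against Scribble null and −0.11 for the departure), for Hsp90ab1 in triple null against Scribble null without Scribble null 1 (0.01; lowest −0.27) and for Dnajb1 in triple null against wild type without wild type 1 (0.01; lowest −0.20). Over all genes, 95 were called higher and 114 lower in Scribble null, and 58 and 199 under median-ratio scaling, which moved the median of all genes from 0.14 to 0.01. The same scaling moved the calls from 76 and 83 to 39 and 96 in Yap1 Taz null (53 and 94 under quantile normalization), from 36 and 57 to 25 and 67 in the triple null, from 11 and 18 to 12 and 11 for triple null against Yap1 Taz null, and from 60 and 42 to 65 and 26 for the departure. Over all alternatives the total of 209 for Scribble null ranged from 46 to 268, that of 159 for Yap1 Taz null from 52 to 163, and that of 93 for the triple null from 36 to 103. The 34 against Scribble null ranged from 11 to 60, the 29 against Yap1 Taz null from 6 to 37, and the 102 of the departure from 45 to 138. Without a depth, counting error could not be computed.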
